A study of Mus musculus with 9 samples.

Results

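A set of 10 genes of the endoplasmic reticulum (ER) unfolded protein response, grouped here around the XBP1 and ATF6 branches, was read in CD103+ lung dendritic cells (DCs) before and after a period of culture. The 10 genes, Xbp1, Ern1, Atf6, Herpud1, Sel1l, Edem1, Sdf2l1, Creld2, Manf and Pdia4, were chosen by gene symbol from 45535 named rows of the table. All samples came from mice of the genotype C57/BL6j that had been given bleomycin, a drug that injures the lung and leads to fibrosis, for 7 days, and no group without bleomycin entered the comparison. Lungs were digested with collagenase and the CD103+ DCs were taken out with magnetic beads. The 5 samples called before culture were collected at that point, and the 4 samples called after culture had been kept for 18 h in RPMI to which fetal bovine serum, penicillin and streptomycin were added. The labels name no further agent and do not say whether a sample was 1 mouse or a pool, so p-values measure only the spread between these samples.

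The unfolded protein response adjusts the folding capacity of the ER to the load of newly made secretory and membrane proteins. The sensor IRE1 (gene Ern1) cuts the Xbp1 mRNA so that it encodes an active transcription factor, and ATF6 is carried to the Golgi, where proteases release its transcription factor domain. Both factors bind ER stress elements in the promoters of genes for chaperones, folding enzymes and ER-associated degradation (ERAD), the route by which misfolded proteins are drawn back into the cytosol and destroyed. CD103+ conventional type 1 DCs (cDC1), which cross-present antigen, are known for a high activity of the IRE1 and XBP1 branch. A count per gene does not separate spliced from unspliced Xbp1 mRNA or cut from uncut ATF6 protein, so the activity of the sensors was not measured.

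Named genes held 14.7 to 35.3 M reads per sample. All 10 cDC1 markers were read in every sample, and their summed normalized count was 121489 to 149327 before and 29633 to 34492 after culture, with 3 markers higher and 7 lower. The largest part of that sum before culture was Wdfy4, with a mean of 75717 before and 4761 after culture. Itgae (CD103) fell from a mean of 18138 to 1727 and Xcr1 from 5836 to 114, while Batf3, Flt3 and Zbtb46 were the 3 higher. Markers of other lung cells were also read: fibroblast markers summed to 15611 to 28377 before and 2206 to 4422 after culture (6 of 6 lower), and neutrophil markers to 12713 to 21974 and 813 to 1687 (6 of 6 lower). Alveolar epithelial markers summed to 23861 to 40281 and 4157 to 8036 (7 of 7 lower), airway secretory markers to 2587 to 5882 and 354 to 903 (6 of 6 tested lower, of 7 listed), and endothelial markers to 19595 to 28386 and 2233 to 3101 (6 of 6 lower). In the alveolar list Sftpc had a mean of 7801 before and 1615 after culture, Napsa 7835 and 1789, and Cdh1 6244 and 673. Before culture Napsa (7064) and Cdh1 (5303) were lowest in replicate 4, where Sftpc was highest (16826). Which cells these reads came from was not tested. Macrophage markers summed to 32601 to 56401 and 17687 to 30683 (6 of 8 lower), and markers of plasma cells, which use XBP1 to secrete antibody, to 8932 to 12844 and 7072 to 9194 (1 higher and 3 lower of 7 tested, of 8 listed). The largest part of the plasma cell sum was Ighm, with a mean of 6456 before and 4343 after culture. Mzb1 had means of only 28.4 and 27.3, and Tnfrsf17 was at most 3.58 in any sample. The plasma cell marker called higher was Sdc1 (653 and 1622). B cell markers summed to 2390 to 4460 and 2435 to 3350, and T cell markers to 3532 to 4073 and 3340 to 4514, with 1 higher and 1 lower of 5 in each list. No marker was at 0 in all samples. In such bulk samples fewer cells of a type and less RNA per cell cannot be told apart, and the part of other cells in the changes below was not tested.

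The promoters of 8 members were found in the RefSeq table (build GRCm38.p6, windows of 300 bases around the start site), and those of Atf6 and Manf were not matched. An exact copy of an ER stress element stood in 2 of them, Herpud1 and Creld2, and these stretches are shown because the element is the binding site by which ATF6 and XBP1 are known to act. The Sdf2l1 stretch is shown beside them since Sdf2l1 had the most CCACG cores (3) but no exact element. It holds only the core at −17 to −13 from the start site, and the others, at −207 to −203 and −149 to −145, lie outside it. Letters run 5′ to 3′ in the direction of the gene, and capitals mark the matched motif, on the gene's own strand in Herpud1 and on the opposite strand in Creld2 and Sdf2l1.
Herpud1, chr8:94386357-94386407, plus strand: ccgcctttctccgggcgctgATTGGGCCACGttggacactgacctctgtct
Creld2, chr15:88819500-88819558, plus strand: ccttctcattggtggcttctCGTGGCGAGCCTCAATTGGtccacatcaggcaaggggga
Sdf2l1, chr16:17132384-17132443, minus strand: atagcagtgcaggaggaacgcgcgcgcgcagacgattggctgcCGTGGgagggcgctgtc
The Herpud1 motif, ATTGGNCCACG (ER stress response element II), lay at −52 to −42 from the start site and was found in 12 of 32851 promoter windows of this length (0.0365%). The Creld2 motif, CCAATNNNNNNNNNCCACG (ER stress response element), lay at −126 to −108 and was found in 39 windows (0.119%). None of the 8 promoters held TGACGTGG, the core of the unfolded protein response element, which was in 222 windows (0.676%). The core CCACG, which overlaps both ER stress elements, was in 10765 windows (32.8%). It occurred 2 times in Herpud1, Edem1 and Creld2, and 1 time in Ern1, Sel1l and Pdia4, and was not in the Xbp1 window. All searches covered both strands and exact letters only.

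After culture the 10 members did not move as a block. Sel1l and Edem1, which act in ERAD, rose, and Xbp1, Atf6, Herpud1, Sdf2l1 and Creld2 fell, while Ern1, Manf and Pdia4 did not pass the test. The test was limma on log2(normalized count + 1), with p adjusted by the Benjamini-Hochberg method over 18202 genes and a threshold of 0.05. Of all genes tested, 68.8% were called, 34.2% higher and 34.6% lower, so that 7 of 10 members called (70.0%) is close to the background and is no result about them. Samples did not overlap between the groups for 5 members, against 57.3% of all genes tested. The median log2 fold change of the members was −0.30, beside 0.0065 for all genes tested, and no member changed by more than 2-fold. The summed normalized count of the 10 members was 34334 to 39641 before and 33913 to 44702 after culture, and these ranges overlapped.

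**Figure D1:**
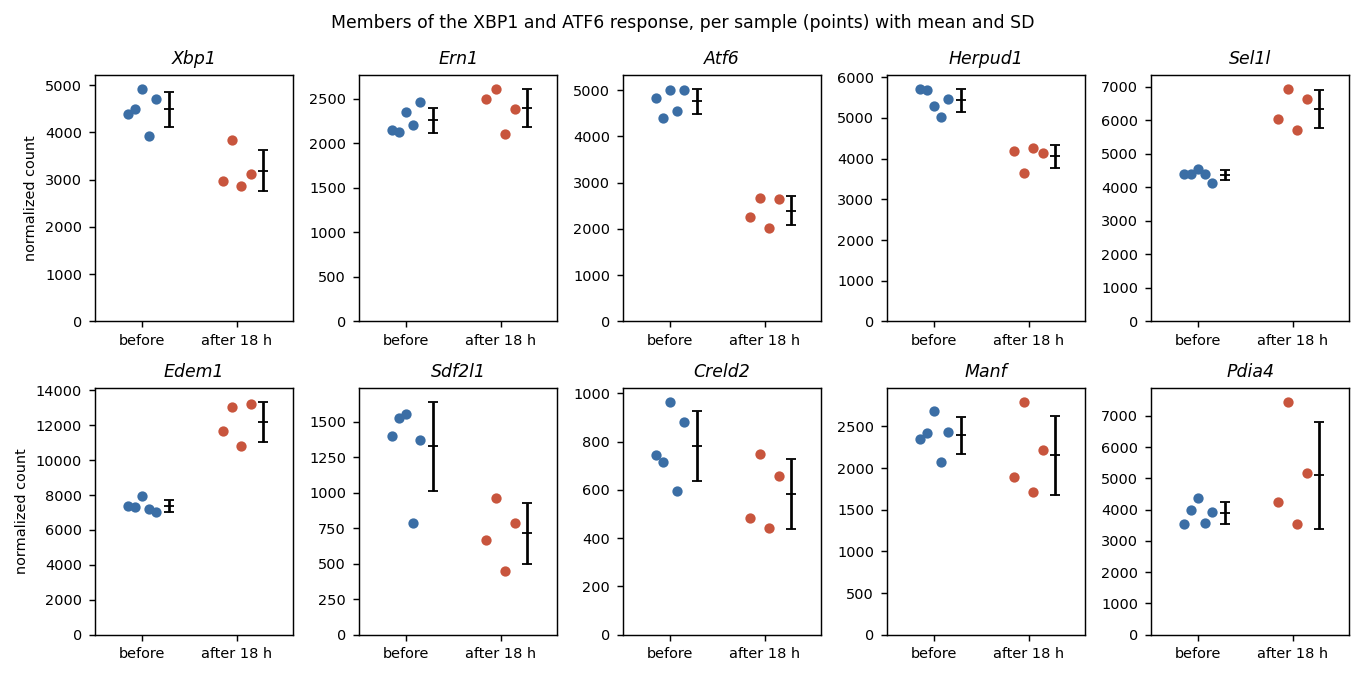
Normalized count (vertical axis, from 0) of each of the 10 genes in the 5 samples before (blue points) and the 4 samples after 18 h of culture (red points), with the mean and SD beside each group. The groups lie apart for Xbp1, Atf6, Herpud1, Sel1l and Edem1, and overlap for Ern1, Sdf2l1, Creld2, Manf and Pdia4.

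Single values below are normalized counts in the order of the replicates, and errors after ± are SDs over 5 samples before and 4 after culture. Among the members that encode sensors or their transcription factors (Xbp1, Ern1 and Atf6), Atf6 fell the most. Atf6, the membrane-bound precursor of the ATF6 factor, had normalized counts of 4834, 4393, 5010, 4540 and 5008 before culture and 2252, 2666, 2013 and 2639 after it. Every sample after culture was below every sample before it. The mean was 4757 ± 280 (SD, n = 5) before and 2392 ± 316 (SD, n = 4) after culture, a log2 fold change of −1.0 (SE 0.0901, 95% interval −1.19 to −0.80, limma adjusted p = 3.96e-07). The gene lies at 1:170704674-170867771 on the minus strand (GENCODE M21, GRCm38.p6) and contains the small nuclear RNA genes Gm23523 and Gm25235.

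Xbp1, whose spliced mRNA encodes the main transcription factor of the IRE1 branch (11:5520659-5525893, plus strand), read 4381, 4488, 4926, 3926 and 4699 before culture and 2963, 3835, 2857 and 3113 after it. Replicate 2 was the highest sample after culture and lay just under the lowest sample before culture. Mean values were 4484 ± 376 before and 3192 ± 441 after culture, giving a log2 fold change of −0.50 (SE 0.0949, 95% interval −0.70 to −0.29, limma adjusted p = 4.04e-04).

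Ern1, which encodes the sensor IRE1 itself (11:106394650-106487852, minus strand), read 2152, 2128, 2349, 2202 and 2461 before culture and 2499, 2608, 2108 and 2390 after it. Its groups overlapped, with replicate 3 after culture below every sample before culture and replicates 1 and 2 above every one. The log2 fold change was 0.09 (SE 0.0788, 95% interval −0.08 to 0.26) and did not pass the test (limma adjusted p = 0.347).

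Of the 3 ERAD genes, 2 rose and 1 fell. Edem1, a lectin-like protein that hands misfolded glycoproteins to the degradation machinery (6:108828641-108859356, plus strand), read 7380, 7292, 7925, 7213 and 7006 before culture and 11645, 13054, 10832 and 13219 after it. All 4 samples after culture stood above all 5 before it. The mean rose from 7363 ± 343 to 12187 ± 1147, or 1.66-fold, with a log2 fold change of 0.72 (SE 0.0779, 95% interval 0.56 to 0.89, limma adjusted p = 2.26e-06).

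Sel1l, the partner that holds the ubiquitin ligase HRD1 in place in the ER membrane (12:91806043-91849157, minus strand), read 4406, 4405, 4538, 4412 and 4124 before culture and 6052, 6947, 5719 and 6639 after it. The groups did not overlap, and the samples before culture lay close together. The mean rose from 4377 ± 152 to 6339 ± 556, or 1.45-fold, with a log2 fold change of 0.53 (SE 0.0727, 95% interval 0.37 to 0.69, limma adjusted p = 2.18e-05). Its partner Syvn1, the gene of HRD1, went the other way, from 3820 ± 309 to 2243 ± 350 (log2 fold change −0.78, limma adjusted p = 1.29e-05).

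Herpud1, a small membrane protein of the same ligase complex whose promoter carries the element shown above (8:94386438-94395377, plus strand), read 5702, 5691, 5302, 5029 and 5468 before culture and 4177, 3646, 4260 and 4136 after it. Here too no sample of one group reached into the other. Mean values were 5439 ± 283 before and 4055 ± 277 after culture, giving a log2 fold change of −0.42 (SE 0.0715, 95% interval −0.58 to −0.27, limma adjusted p = 1.38e-04). An antisense gene, Gm15890, overlaps Herpud1, and since the use of strand in counting is not given in the sources used here, reads of the pair cannot be told apart.

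Among the genes for proteins of the ER lumen, Sdf2l1 and Creld2 fell, and Manf and Pdia4 did not pass the test. Sdf2l1, a co-factor of the chaperone BiP and its DnaJ proteins (16:17130138-17132383, minus strand), read 1399, 1523, 1556, 787 and 1371 before culture and 667, 961, 448 and 786 after it. Replicate 4 before culture lay far below the other samples of its group and inside the range of the samples after culture. Mean values were 1327 ± 312 before and 715 ± 215 after culture, giving a log2 fold change of −0.90 (SE 0.221, 95% interval −1.38 to −0.43, limma adjusted p = 0.00252).

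Creld2, a luminal protein with disulfide isomerase activity (15:88819646-88826683, plus strand), read 746, 716, 965, 595 and 881 before culture and 484, 748, 441 and 658 after it. The highest sample after culture exceeded 3 of the 5 samples before it. Mean values were 781 ± 145 before and 583 ± 144 after culture, giving a log2 fold change of −0.43 (SE 0.167, 95% interval −0.80 to −0.07, limma adjusted p = 0.0329). This call was lost when replicate 3 before culture (adjusted p = 0.0817), replicate 5 before culture (0.0741), replicate 1 after culture (0.104) or replicate 3 after culture (0.105) was left out, all by limma.

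Manf, a secreted protein that binds BiP and is released under ER stress (9:106838312-106891979, minus strand), read 2349, 2416, 2687, 2071 and 2438 before culture and 1888, 2795, 1709 and 2216 after it. Replicate 2 after culture was the highest of all 9 samples and replicate 3 after culture the lowest. Its log2 fold change of −0.17 (SE 0.125, 95% interval −0.44 to 0.10) did not pass the test (limma adjusted p = 0.234), and without replicate 2 after culture it was −0.31 and passed (adjusted p = 0.0163). The gene overlaps Dcaf1, Rbm15b, Gm37612 and 4930524O07Rik, so its counts are uncertain where strand was not used.

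Pdia4, a protein disulfide isomerase (6:47796141-47813430, minus strand), read 3552, 3992, 4382, 3560 and 3929 before culture and 4244, 7444, 3526 and 5184 after it. A single sample, replicate 2 after culture, stood far above the rest, and replicate 3 after culture was the lowest of all. The mean was 3883 ± 346 before and 5100 ± 1704 after culture, and the log2 fold change of 0.34 (SE 0.165, 95% interval −0.02 to 0.70) did not pass the test (limma adjusted p = 0.0820). Without replicate 3 after culture it was 0.50 and passed (adjusted p = 0.00760), and without replicate 2 after culture it was 0.14 and did not. For none of the 10 members was a 50-base window of its longest transcript found in a transcript of another gene. This search read the sense direction only, so it did not cover antisense overlaps or exons outside the longest transcript.

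**Figure D2:**
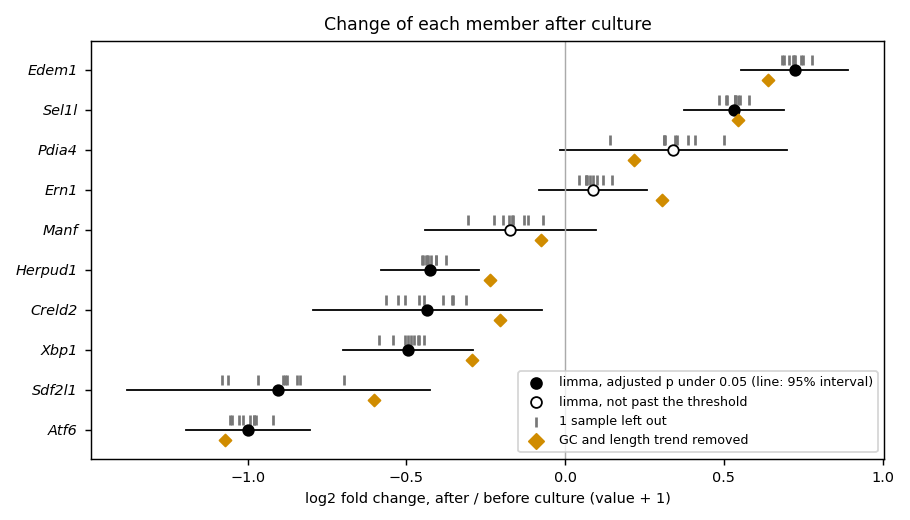
Log2 fold change of each gene (horizontal axis, after over before culture), with its 95% interval from limma, filled circles for genes past the adjusted p of 0.05 and open circles for the others. Grey ticks give the value with 1 sample left out and orange diamonds the value after removal of the GC and length trend with the median kept. Atf6 stays near −1.0, while the diamonds of Xbp1, Herpud1, Sdf2l1, Creld2, Manf, Pdia4 and Edem1 move toward 0. The diamond of Ern1 moves away from 0, to 0.31 from 0.09.

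The change after culture followed the base composition of the transcripts across all genes. In 17555 tested genes with a gene model, the median log2 fold change was 0.42 in those with the lowest GC content (up to 44.5%) and 0.13, −0.11 and −0.39 in the 3 GC classes of equal size above them. Of the 5 members that fell, 4 had a GC content above the median of 49.3%: Xbp1 and Herpud1 at 53.0%, Creld2 at 54.8% and Sdf2l1 at 56.7%. Atf6, at 46.0%, was below it, as were the risers Edem1 at 46.2% and Sel1l at 47.7%. Ern1 stood at 50.6%, Manf at 51.0% and Pdia4 at 47.6%.

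Removing a smooth trend over GC content and length from each sample left 3 members higher and 1 lower, in place of 2 higher and 5 lower. In that fit Xbp1 (log2 fold change −0.18, adjusted p = 0.0822), Herpud1 (−0.12, 0.155), Sdf2l1 (−0.48, 0.0588) and Creld2 (−0.09, 0.659) no longer passed the limma test. Ern1 passed it as higher (0.42, 3.45e-04), and this correction also moved the median of all genes to 0.13. With the median kept where it was, an alternative chosen after seeing the data, 3 members were higher and 4 lower: Xbp1 was at −0.29 (limma adjusted p = 0.00515), Herpud1 at −0.24 (0.00802), Sdf2l1 at −0.60 (0.0216) and Ern1 at 0.31 (0.00210), while Creld2 did not pass (−0.20, 0.274). Atf6, Sel1l and Edem1 kept their direction and their call in both corrections, with Atf6 at −0.95 and −1.07, Sel1l at 0.66 and 0.54 and Edem1 at 0.76 and 0.64.

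Levels were compared between members per kilobase of exon, with all annotated exons of a gene joined, and the order depends on this choice of length. For Xbp1 the joined exons held 3248 bases and the longest transcript 2129, and for Manf 3524 and 2247. Both lengths were equal for Sdf2l1, Creld2 and Pdia4. Before culture Herpud1 was the most abundant, at 2156 to 2444 normalized counts per kb, and Ern1 the least, at 260 to 301, and neither overlapped its neighbour in the order. Between them came Pdia4 (1480 to 1827), Xbp1 (1209 to 1517), Sdf2l1 (710 to 1404), Edem1 (1086 to 1228), Manf (588 to 762), Creld2 (436 to 706), Atf6 (476 to 543) and Sel1l (482 to 530), of which each overlapped the next except Edem1 and Manf. After culture Edem1 (1679 to 2049) stood with Pdia4 (1470 to 3103) and Herpud1 (1563 to 1826) at the top, with overlapping ranges. Xbp1 followed at 880 to 1181, then Sel1l (669 to 812), Sdf2l1 (404 to 867), Manf (485 to 793) and Creld2 (323 to 547). The sensors came last after culture, Ern1 at 258 to 319 and Atf6 at 218 to 289, which overlapped each other but not Creld2. Atf6, at 515 ± 30.3 per kb against 276 ± 17.4 for Ern1 before culture, stood at 259 ± 34.2 against 294 ± 26.3 after it.

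After culture the 4 genes of luminal proteins varied more between samples than the sensors and Xbp1. The log2 distance from the lowest to the highest sample was 0.98 before and 1.10 after culture for Sdf2l1, larger than in 97.8% and 97.9% of the 7348 genes with a mean of at least 500. For Creld2 it was 0.70 and 0.76, larger than in 93.2% and 92.3% of those genes. For Pdia4 it was 0.30 before and 1.08 after culture, larger than in 53.6% and 97.7% of them, and for Manf 0.38 and 0.71 (67.3% and 90.6%). Sel1l kept close before culture, at 0.14, with a smaller distance in 9.66% of the genes.

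Before culture 8 of 10 members were highest in replicate 3, as were 26.6% of the 7348 genes, and after culture 8 of 10 were highest in replicate 2, as were 47.3% of genes. Ern1 and Herpud1 were the exceptions before culture and Herpud1 and Edem1 after it. The lowest sample before culture was replicate 4 for 5 of 10 members, a share close to that of all genes (44.4%), and replicate 3 was the lowest after culture for 9 of 10 (51.8%), with Herpud1 again apart. Only 4 of 10 members were lowest in both of these samples, beside 32.3% of genes. Replicate 3 before and replicate 2 after culture bore the same library number, as did replicate 4 before and replicate 3 after culture. The labels do not say whether samples of the same library number shared an animal or a preparation. The summed macrophage markers were also highest in replicate 3 before (56401) and replicate 2 after culture (30683), and lowest in replicate 4 before (32601) and replicate 3 after culture (17687). Neutrophil markers had the same 4 extremes, at 21974 and 1687 for the highest and 12713 and 813 for the lowest, and the sums of fibroblast and endothelial markers were highest in the same samples. Other lists ran otherwise. The cDC1 sum was lowest in replicate 3 before (121489) and replicate 2 after culture (29633), and highest after culture in replicate 3 (34492). Alveolar epithelial (40281 and 8036), airway secretory (5882 and 903) and T cell sums (4073 and 4514) were highest in replicate 4 before and replicate 3 after culture. B cell and plasma cell sums had neither pair of highest samples. The part of any of these cells in the spread of the members was not tested. Among 116 other genes of the response with a mean of at least 500, 54 were highest in replicate 3 before culture and 85 in replicate 2 after culture.

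**Figure D3:**
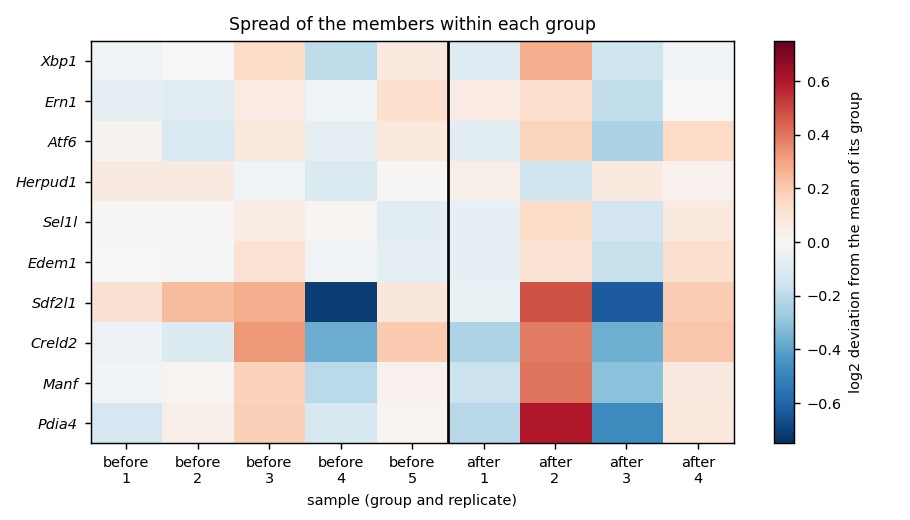
Log2 deviation of each member (rows) from the mean of its own group in each of the 9 samples (columns), red above and blue below the mean, with a line between the groups. Sdf2l1 carries the strongest colours, at −0.71 in replicate 4 before and −0.62 in replicate 3 after culture, and Pdia4 reaches 0.60 in replicate 2 after culture, where Herpud1 is the only member below its mean.

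The other genes of the response were taken in 6 lists, of which 137 genes were in the table and 136 were tested; the sensor gene Ern2 was too low (at most 3.35 normalized counts). Of these, 47 rose and 41 fell (64.7% called, beside 68.8% of all genes), with a median log2 fold change of 0.03. Without replicate 2 after culture 39 rose and 48 fell. A change of at least 2-fold was seen in 4 that rose and 16 that fell, a smaller share in each direction than over all genes tested (2560 and 3389 of 18202).

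Of 18 sensors and transcription factors tested, 3 rose and 8 fell (median −0.28). The falls of 2-fold or more were in Atf4, whose factor is raised when the sensor PERK slows translation, and in Atf3 and Ppp1r15a. Whether PERK had a part in these falls was not tested. Atf4 went from 7857 ± 477 to 3487 ± 140 (log2 fold change −1.17), its target Atf3 from 12714 ± 734 to 2773 ± 441 (−2.21), and Ppp1r15a, which encodes the GADD34 subunit that restores translation, from 9381 ± 489 to 2023 ± 222 (−2.22). Ddit3, the gene of CHOP, fell from 636 ± 88.3 to 389 ± 12.7 (−0.70), with a limma adjusted p of 4.22e-05 and no overlap. Eif2ak3, which encodes PERK, read 1676 ± 43.4 and 1805 ± 123 and did not pass the limma test (0.10, adjusted p = 0.185), but passed it as higher in both GC corrections (0.41 and 0.29). Nfya, a subunit of the factor NF-Y that binds the CCAAT part of ER stress elements, rose from 3332 ± 51.1 to 5612 ± 93.7 (0.75), and Mbtps2, the site-2 protease that releases ATF6, from 618 ± 17.4 to 968 ± 102 (0.64). The Mbtps2 call was lost after GC correction with the median kept (0.17, limma adjusted p = 0.139), and the list then held 6 higher and 7 lower.

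Chaperones and co-chaperones split evenly, with 8 of 26 higher and 9 lower (median −0.0015). Hspa5, which encodes BiP, the main ER chaperone, read 19243 to 20685 before culture and 10894, 15659, 9440 and 12957 after it. Its groups did not overlap, and replicates 2 and 3 after culture were again the highest and the lowest of theirs. It fell from 20063 ± 718 to 12237 ± 2699 (−0.74, limma adjusted p = 1.08e-04). The nucleotide exchange factor of BiP, Sil1, fell from 375 ± 48.2 to 167 ± 26.0 (−1.16). The DnaJ co-chaperones Dnajc10 and Dnajc1 rose: Dnajc10, an ER disulfide reductase, from 1852 ± 74.5 to 4274 ± 248 (1.21), and Dnajc1 from 1230 ± 27.7 to 2269 ± 179 (0.88). Dnajb9, a known XBP1 target, fell from 1567 ± 157 to 1200 ± 170 (−0.39, limma adjusted p = 0.00447) with overlapping groups, and shares 5.80% of its 50-base windows with other genes, most with Gm6568. The log2 fold change of Dnajb9 ran from −0.91 to −0.31 over the 21 other fits. Hsp90b1, the gene of GRP94, went from 10782 ± 878 to 14338 ± 2996 with overlapping groups (0.39, limma adjusted p = 0.0120), and under GC correction it did not pass (0.08, or −0.04 with the median kept); it shares 1.20% of its windows, most with Gm15344. Dnajc3, another XBP1 target, read 3073 ± 170 and 3217 ± 515 (0.05, limma adjusted p = 0.638), with a value of −0.23 that passed (0.0408) in the GC correction with the median kept.

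Oxidative folding enzymes also split, with 6 of 18 higher and 6 lower (median −0.08), or 2 higher and 7 lower of 16 after GC correction with the median kept. The disulfide isomerase Pdia5 fell from 269 ± 13.3 to 91.6 ± 18.6 (−1.57), and the sulfhydryl oxidase Qsox1 from 1607 ± 224 to 556 ± 72.4 (−1.53). The thioredoxin-related Tmx3 rose from 1807 ± 185 to 3385 ± 340 (0.91), a call kept in all 21 other fits, where its lowest value was 0.21. Selenof, a selenoprotein of glycoprotein folding control, rose from 2691 ± 289 to 4072 ± 690 (0.59), a call lost in the GC correction with the median kept (0.26, limma adjusted p = 0.0583).

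Of 29 ERAD genes other than the members, 14 were higher and 5 lower (median 0.12), beside 34.2% higher and 34.6% lower of all genes tested. The 12 alternatives gave 11 to 15 higher and 4 to 8 lower, and each kept more higher than lower. Derl2, a derlin of the exit channel, rose from 689 ± 39.7 to 1822 ± 126 (1.40), and Ubxn8, which recruits the p97 ATPase to the ER, from 345 ± 22.9 to 650 ± 51.8 (0.91). The mannosidase Man1b1 fell from 3271 ± 194 to 1588 ± 88.5 (−1.04). Syvn1, given above beside Sel1l, no longer passed after the GC correction that moved the median (−0.21, limma adjusted p = 0.0606).

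Genes of ER import, glycosylation and ER-Golgi transport gave 12 of 36 higher and 8 lower (median 0.06), and 6 higher and 8 lower of 35 after GC correction with the median kept. The largest rise of all the lists was in Gfpt1, the rate-limiting enzyme of the hexosamine pathway and a known XBP1 target, from 3664 ± 130 to 18091 ± 1437 (2.30, limma adjusted p = 1.51e-11). The cargo receptor subunit Mcfd2 rose from 754 ± 126 to 1276 ± 333 (0.74) with overlapping groups. Dad1, a subunit of the oligosaccharyltransferase, fell from 2410 ± 304 to 1042 ± 214 (−1.22), and Ssr4, of the translocon-associated complex, from 2076 ± 267 to 1144 ± 229 (−0.87).

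Of 9 transcripts described as cut by IRE1, 4 were higher and 5 lower, all past the test that 68.8% of all genes passed, with a median of −0.76. With GC and length correction 4 were higher and 4 lower (median −0.29), with the median of all genes kept 3 were higher and 4 lower (−0.40), and at a mean of at least 50 the counts were 4 and 4 of 8 tested (−0.13). Hgsnat, a lysosomal acetyltransferase, rose from 1061 ± 115 to 2205 ± 460 (1.04), and Tapbp, the gene of tapasin in the peptide-loading complex of MHC class I, from 12298 ± 671 to 19383 ± 1301 (0.66). Tapbp shares 2.00% of its windows, most with AC122861.4. The matrix genes Col6a1 (1759 ± 336 to 159 ± 42.7, −3.47) and Sparc (5357 ± 1607 to 1074 ± 259, −2.30) fell, beside the 6 of 6 fibroblast markers that fell. The part of fibroblast RNA in these values was not tested.

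**Figure D4:**
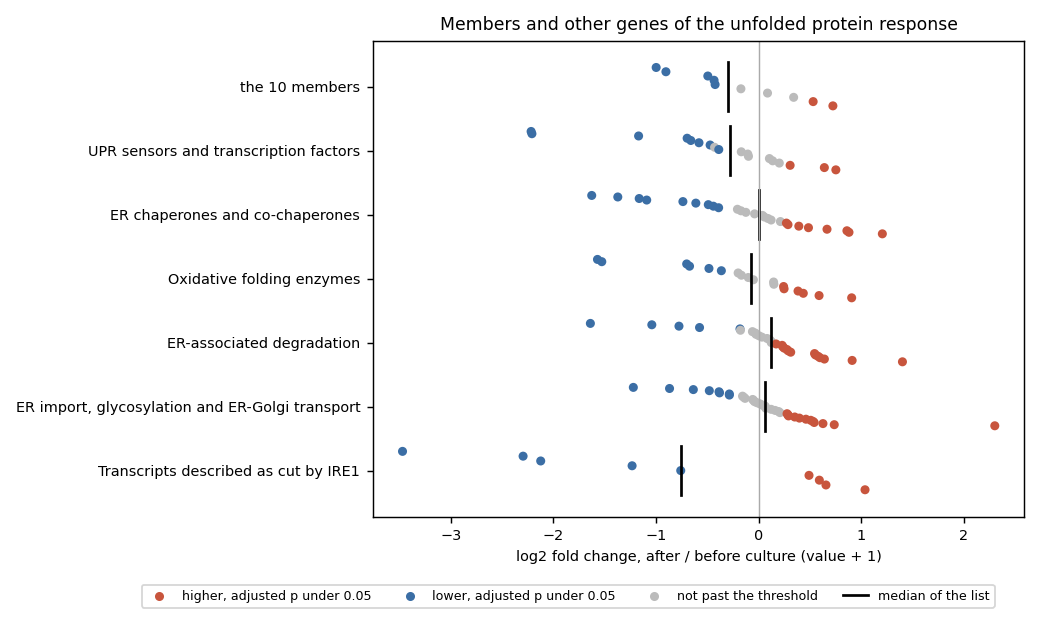
Log2 fold change (horizontal axis, after over before culture) of the 10 members and of each tested gene of the 6 lists, 1 point per gene, red for higher and blue for lower past the adjusted p of 0.05 and grey for the rest, with a black line at each median. Red points outnumber blue in the ERAD row (14 against 5), and blue points outnumber red among sensors and transcription factors (8 against 3).

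The genes whose profile over the 9 samples was most like that of Xbp1 came from outside the response. Likeness was the root mean square difference of the centred log2 profiles, over 11785 genes with a mean of at least 100. The nearest were Pxk (0.0571), Selenow (0.0578), Pprc1 (0.0578), Ampd2 (0.0581) and Tomm20 (0.0597). Their log2 fold changes lay between −0.54 and −0.45, near that of Xbp1 because the choice itself used the shift between the groups. The limma calls of Selenow, Pprc1 and Ampd2 were lost in both GC corrections. Of the genes of the response, Creb3, an ER-bound factor related to ATF6, came nearest at rank 51 (0.0865), and of the members, Creld2 at rank 968 (0.162), then Manf at rank 1254 and Herpud1 at rank 1440.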

How the data were processed

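Total RNA of 9 samples (5 before, 4 after culture, grouped by the treatment label) was sequenced by a company; the extraction label speaks of total lung RNA while the cell type label names CD103+ DCs. The authors deposited 1 table of normalized counts, a signal that is never negative. The submitters' processing notes name DESeq2 and the build GRCm38; aligner, counter, annotation, strand use and filters are not given in the sources used here. All values (100%) were whole reads (tolerance 1e-06 reads) divided by 1 factor per sample, with 1 read worth 0.758 to 1.79. Rows without a symbol (3782; 3.87 to 10.9% of reads) were left out.

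limma 3.58.1 (R 4.3.3) was fitted to log2(value + 1), which understates the change of low genes, with group as the only term and a mean-variance trend, two-sided, over genes with a mean of at least 10; edgeR 4.0.16 and DESeq2 1.42.0 ran on the recovered reads as alternatives. On simulated data for this comparison, 199 of 200 genes changed 2-fold were recovered at a dispersion of 0.02 (18183 genes tested) and 42 at 0.1 (18171 genes tested). The dispersions were set and not taken from the data. Only 200 genes changed in the simulation, while 68.8% were called in the data, so these counts do not give the power of the test here.

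Members and lists were chosen with earlier results of these data known. Named genes were the 10 members, in each list the 2 called higher and 2 called lower with the largest change and a mean of at least 100, the fixed names Hspa5, Hsp90b1, Dnajb9, Dnajc3, Syvn1, Eif2ak3, Atf4 and Ddit3, and the 5 genes most like Xbp1. Of 143 listed symbols, 6 were alternative names not in the table. Lengths, GC content and gene positions came from GENCODE M21; a model was found for 96.5% of tested genes.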

Additional observations from a re-analysis of the deposited data

Results flagged for a closer look

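Single samples were compared with the rest of their group for the 45 named genes in both groups (90 groups of 4 or 5 samples). A sample was listed where its gap to the nearest other, as a share of the group's range, passed Dixon's 95% critical value for a group of its size. Chance gives about 1 in 20 such groups, and 5 of 90 passed. In Sdf2l1, replicate 4 before culture was the lowest at 787 normalized counts, with a gap of 0.760 of the range. Replicate 4 before culture was also the lowest for Dad1 (1884, gap 0.730), Tapbp (11136, gap 0.726) and Selenow (1292, gap 0.711). Replicate 2 after culture was the highest for Col6a1, at 223 normalized counts (gap 0.915). The causes were not tested.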

How the results depend on the processing

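Over 12 alternatives and 9 fits that left out 1 sample, 192 of 210 values for the members kept their direction and their side of the threshold, 10 lost the call, 7 gained it and 1, Manf, changed sign (0.041 after GC and length correction, adjusted p = 0.775, limma; the cause was not tested). Atf6, Sel1l and Edem1 kept direction and call in all 21. That correction called 4 members in place of 7; the other alternatives called 6 to 8. Leaving out 1 sample gave 6 to 8 members, 11770 to 12668 of all genes and 79 to 90 of the other genes of the response. Quantile normalization and DESeq2 also called Pdia4 as higher (adjusted p = 0.0479 and 0.0376).

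The labels do not say whether the replicate numbers pair the samples, and the main fit took the samples as unpaired. Samples with the same title number had deviations correlated from −0.21 to 0.08 across genes, and those with the same library number from 0.04 to 0.35 (2 of 4 pairs over 0.1), where 4 of 4 samples after culture and 3 of 4 before it were closest to their own number. A replicate block by title number called 6 members, 11646 of all genes and 76 of the other genes of the response, and Creld2 did not pass (adjusted p = 0.120, limma). A replicate block by library number called 8, 12836 and 92, with Pdia4 as higher (adjusted p = 0.00822, limma). In that fit Creld2 passed as lower, at −0.46 (adjusted p = 3.34e-04, limma).

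The lowest value of a member in any sample was 441 normalized counts (Creld2), and reads carry no molecular identifiers here, so the spread between samples was taken as the error. Protein sequences of the members were not used here.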
